A study of Mus musculus with 8 samples.

Results

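The genes described here encode the ion channels that set the excitability of cortical neurons: potassium channels, voltage-gated sodium and calcium channels, and the hyperpolarization-activated cation channels of the HCN family. Members were all genes on the array with a single symbol beginning with Kcn, Scn and a number, Cacn, or Hcn and a number, the probe set with the highest mean signal standing for each gene. They were 62 of the 8251 named genes on the array: 42 potassium, 6 sodium, 12 calcium and 2 HCN channel genes, auxiliary subunits included. Wild-type C57Bl6 mice lost 1 eye by enucleation at P20 (postnatal day 20), and visual cortex was dissected 4 days later, at P24. Most optic nerve fibres of the mouse cross, so the hemisphere opposite the removed eye (contralateral) is called deprived and the ipsilateral one non-deprived. Each group had 4 arrays, numbered 1 to 4 in both. The labels speak of 4 mice and also of pooled samples, so an array may hold 1 animal or a pool, and p-values measure only how these samples vary, and that variation may be technical. Both groups come from mice with 1 eye removed, and unoperated cortex was not part of the comparison.

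Sodium channels start the action potential, and potassium channels end it and hold the membrane at rest. Calcium channels turn depolarization into calcium entry at synapses and dendrites, and HCN channels pass an inward current when the membrane is hyperpolarized. Neurons deprived of input are known in several systems to adjust their channels so that firing recovers.

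The median signal per array lay between 183 and 209. Of 12 listed markers of cortical neurons, 9 were on the array and all of these were bright enough to test, with Snap25, a synaptic vesicle fusion protein, at a mean signal of 14932. The choroid plexus markers on the array (4 genes) were all dim, Ttr at a mean of 37.6. The median log2 difference was -0.04 for cortical neuron, -0.03 for interneuron, -0.05 for oligodendrocyte and 0.01 for astrocyte markers. The mean level of the 10 interneuron markers was lower in the deprived sample of each pair. Among them Sst and Npy, neuropeptides of inhibitory neurons, had -0.49 ± 0.27 and -0.60 ± 0.34 (SE), lower in 4 of 4 pairs, with limma unadjusted p of 0.0925 and 0.102 (0.00633 and 0.00611 with the replicate block, both 0.685 adjusted). Pvalb had 0.03 ± 0.18 (SE). Lhx6 and Calb2 of the same list went the other way, higher in 4 of 4 pairs at 0.28 ± 0.15 and 0.24 ± 0.15 (SE). Their limma unadjusted p was 0.0796 and 0.141. Of the 10 interneuron markers, 6 lay below 0 and 4 above. Over all probe sets tested, 6.92% were lower and 8.95% higher in 4 of 4 pairs. The part of these markers in the channel values was not tested. The median was 0.08 for microglial and for endothelial and mural markers, 0.18 for thalamic, 0.03 for hippocampal and 0.29 for the single testable striatal marker. The actin control probes read 3' over 5', which tracks RNA quality, at 1.39 ± 0.179 (non-deprived) against 1.64 ± 0.239 (deprived; SD, n = 4, exact two-sided permutation p = 0.171). The Gapdh ratio was 0.898 ± 0.0543 and 0.842 ± 0.0345 (SD, n = 4, exact permutation p = 0.143). The 10th percentile of signal was 13.5 ± 0.718 and 17.2 ± 2.68 (SD, n = 4, exact permutation p = 0.0286, the lowest that 4 against 4 allows), so the dimmest probe sets read higher in deprived cortex.

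No channel gene was called different between the hemispheres. Of the 62 genes, 36 had a probe set bright enough to be tested, a mean signal above about 110, and 26 were too dim. Values were compared as log2 of signal plus a pseudocount of 15.3, deprived minus non-deprived, a scale that understates the change of dim genes. By limma with Benjamini-Hochberg adjustment over all 7453 probe sets tested, 0 of 36 channel genes passed the threshold of 0.05, where 0% of all probe sets did. Their smallest adjusted p was 0.995, and 0.703 with the replicate number as a block. At an unadjusted p under 0.05 in limma there was 1 channel gene, 2.78% against 2.67% of all probe sets; it was lower, as were 1.22% of all. With the block there were 3, or 8.33% against 7.03%, and all 3 were lower, as were 3.65% of all. With both directions counted, the shares of 2.78% and 8.33% are close to the background. Counts of 1 and 3 genes are too few to read a direction from. The signals of both groups overlapped for all 36 genes, while 2.04% of all probe sets had no overlap, 0.805% with deprived cortex below and 1.23% with it above.

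The differences of the 36 genes were small and fell evenly on both sides. They ran from -0.40 for Kcnab1 to 0.32 for Kcna6, folds of 0.76 and 1.25 on this scale, with 18 below 0, 18 above and a median of -0.01. Over all probe sets tested 54.9% lay above 0 and the median was 0.02. The 95% interval of the difference lay within a fold of 2 either way for 35 of 36 genes (97.2%, against 92.1% of all probe sets), the exception being Kcna6 with an upper bound of 1.02. It lay within a fold of 1.5 for 19 (52.8%, against 53.2%). Changes smaller than these bounds may have gone undetected with 4 arrays a group. For scale, 8 activity-regulated genes, listed because earlier results of these data had shown them lower, ran from -0.89 for Fos to -0.50 for Dusp1, all below the estimates of the 36 tested channel genes. None of these 8 was called either, each with a limma adjusted p of 0.995.

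**Figure D1:**
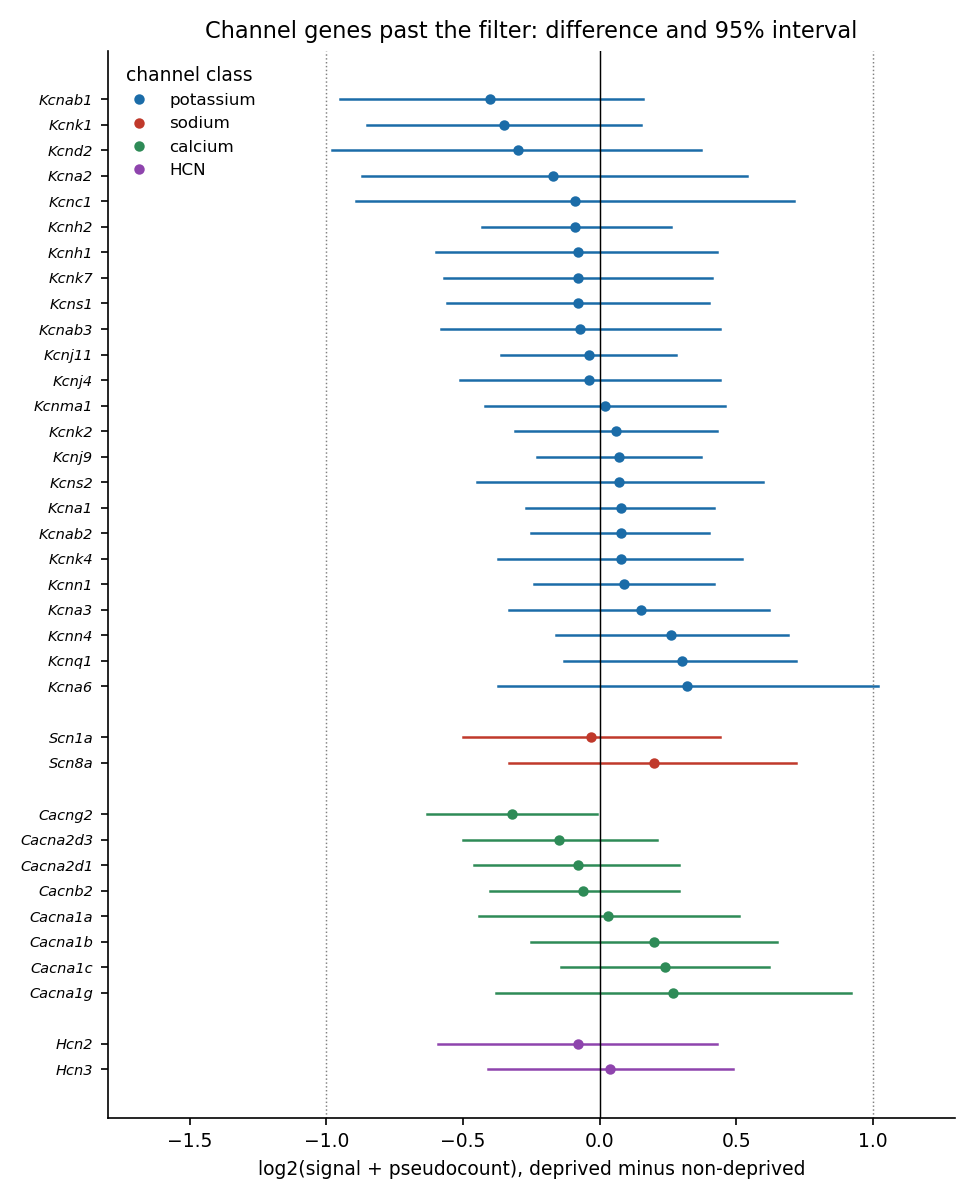
Difference in log2(signal + pseudocount), deprived minus non-deprived (points), with 95% intervals from limma (lines) for the 36 channel genes past the filter, coloured by class; dotted lines mark a fold of 2. Estimates lie between -0.40 (Kcnab1) and 0.32 (Kcna6), and Kcna6 alone reaches past a fold of 2.

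**Figure D2:**
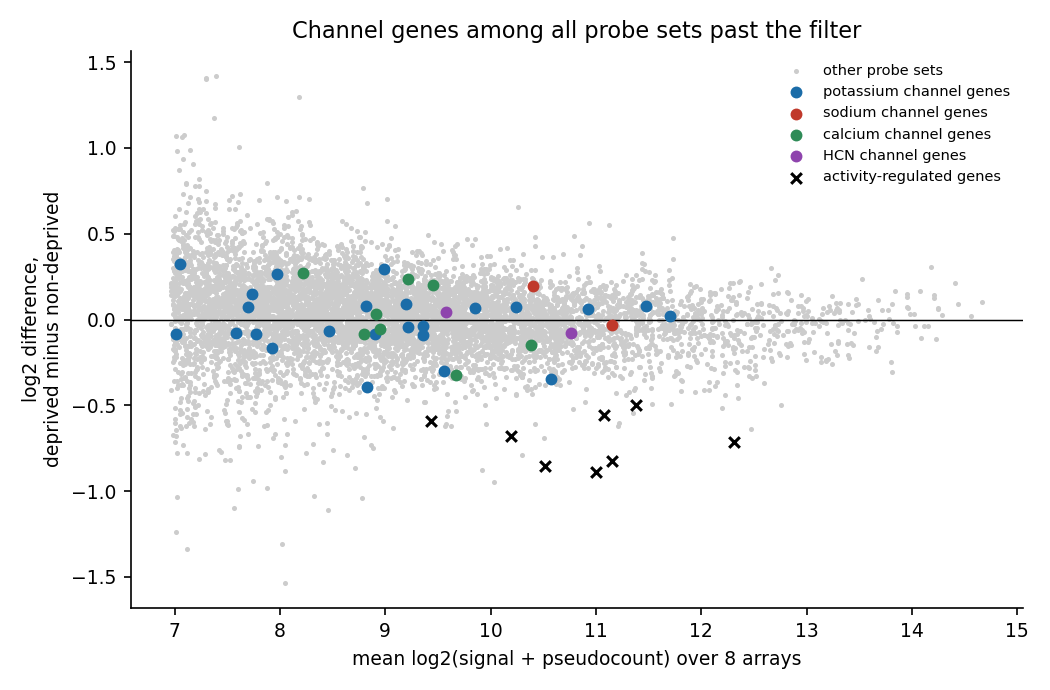
Difference (vertical axis, log2) against mean log2(signal + pseudocount) over 8 arrays (horizontal axis) for all 7453 probe sets tested, with the channel genes coloured by class and 8 activity-regulated genes as crosses. The channel genes lie within the cloud of all probe sets, and the activity-regulated genes, chosen as lower, lie between -0.89 and -0.50.

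Potassium channel genes were the widest class, with 24 of 42 tested, 12 below 0 and 12 above and a median of -0.01. Voltage-gated pore-forming genes had 11 of 16 tested, 6 below 0 and 5 above, with a median of -0.08. Kcnd2 encodes a pore subunit of the Kv4 family, which carries the fast A-type current of dendrites. Its signals were 923, 1328, 618 and 606 in non-deprived arrays 1 to 4, and 753, 1117, 411 and 563 in deprived ones. The groups overlapped widely, but each deprived array was below the non-deprived array of its number, and the arrays numbered 2 were the brightest in both groups. The log2 difference was -0.30 ± 0.31 (SE), with an unadjusted p of 0.347 in limma, and 0.0326 with the replicate block, where the adjusted p was 0.703. Leaving out 1 array gave -0.55 to -0.08, the lowest on leaving out deprived replicate 2 and the highest on leaving out either non-deprived replicate 2 or deprived replicate 3. A dimmer Kcnd2 probe set had -0.21 ± 0.25 (SE), lower in 3 of 4 pairs.

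The Kv1 family, which shapes firing at the axon and its terminals, showed no shared direction. Kcna1 had a mean signal of 1176 ± 231 (non-deprived) against 1224 ± 91.8 (deprived; SD, n = 4), a difference of 0.08 with a 95% interval of -0.27 to 0.42. Kcna2 had 254 ± 105 and 227 ± 86.3, and its pairs split, at -0.49, 0.22, 0.54 and -0.95. Kcna3, which also has a known role in lymphocytes and microglia, had a difference of 0.15 ± 0.22 (SE). Kcna6, close to the filter at 110 ± 46.4 and 137 ± 42.7, had the highest of the class at 0.32 ± 0.32 (SE).

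The other voltage-gated pore genes named here lay on both sides of 0. Kcnc1, of the Kv3 family that allows fast-spiking interneurons to repolarize quickly, was dim and variable at 120 ± 34.3 (non-deprived) against 123 ± 71.1 (deprived). Its interval, -0.89 to 0.71, was the widest of the 36. Kcnh1 and Kcnh2, of the ether-a-go-go family, had -0.08 ± 0.23 and -0.09 ± 0.16 (SE), and Kcns1, an electrically silent modulatory subunit, had -0.08 ± 0.22 (SE). Kcnq1, best known from heart and inner ear, had signals of 388, 428, 655 and 353 in non-deprived and 500.3, 616, 579 and 503 in deprived arrays. Its deprived values lay above 3 of the 4 non-deprived ones, only non-deprived replicate 3 being higher. The difference was 0.30 ± 0.19 (SE), with an unadjusted p of 0.152 in limma and 0.077 with the replicate block. Leaving out 1 array gave 0.19 to 0.48, the highest without non-deprived replicate 3. A second, dim probe set of Kcnq1 had 0.60 ± 0.34 (SE), where the median over dim probe sets was 0.17 without the filter.

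Among auxiliary subunits, 3 of 5 were tested. Kcnab1 encodes a cytoplasmic beta subunit that confers fast inactivation on Kv1 channels, and had the lowest difference of all 36 genes. Its signals were 649.5, 658, 333 and 462 in non-deprived arrays 1 to 4 and 442, 495, 250.3 and 387 in deprived ones. The groups overlapped, yet the deprived array was lower in 4 of 4 pairs, by -0.54 to -0.25. The log2 difference was -0.40 ± 0.25 (SE) with a limma unadjusted p of 0.146. With the replicate block the p was 0.0123 unadjusted and 0.703 adjusted, so it did not pass after adjustment in either fit. Leaving out 1 array gave -0.59 (without non-deprived replicate 3) to -0.20 (without deprived replicate 3). A dim second Kcnab1 probe set, left out by the filter, had 0.04 ± 0.30 (SE). Fewer cells that express a gene and less RNA per cell cannot be told apart in such tissue samples. Kcnab2, a beta subunit gene abundant in brain, had 2788 ± 338 (non-deprived) against 2954 ± 495 (deprived; SD, n = 4), and its difference of 0.08 had an interval of -0.25 to 0.40. A dimmer Kcnab2 probe set past the filter had 0.25 ± 0.19 (SE), with an interval of -0.16 to 0.66.

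The deprived sample was lower in all pairs for 3 of the 36 tested channel genes (8.33%), Kcnab1, Kcnd2 and Cacng2, a share near the background: 6.92% of all probe sets were lower in 4 of 4 pairs. None of the 36 was higher in 4 of 4, against 8.95% of all probe sets.

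Two-pore domain genes, whose channels carry the resting potassium leak, had 4 of 5 members tested and a median of -0.01. Kcnk1 had the lowest value of these at -0.35 ± 0.23 (SE), with a limma unadjusted p of 0.153. Its signals were 1958, 1995, 1142 and 1878 in non-deprived arrays and 1386, 1052, 1971 and 1096 in deprived ones. The arrays numbered 3 went against the other pairs, with a pair difference of 0.78 where the rest were -0.91 to -0.49. Leaving out 1 array gave -0.54 to -0.24, the lowest without non-deprived replicate 3. With the replicate block the limma unadjusted p was 0.171. Kcnk2, a leak channel gated by stretch and lipids, had 1892 ± 263 and 1996 ± 427, with a difference of 0.06 and an interval of -0.31 to 0.43.

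Inward rectifiers, which stabilise the resting potential, had 3 of 11 members tested, the lowest share of the potassium subclasses. Their differences lay between -0.04 and 0.07, and all 3 intervals were within a fold of 1.5. Kcnj4, a strong rectifier of forebrain neurons, had 667 ± 181 (non-deprived) against 644 ± 154 (deprived; SD, n = 4).

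Of 5 potassium channel genes grouped as calcium- or sodium-activated, 3 were tested, Kcnma1, Kcnn1 and Kcnn4. All 3 had differences above 0, as had 54.9% of all probe sets tested. Kcnma1, the large-conductance channel pore, had 3347 ± 727 (non-deprived) against 3418 ± 881 (deprived), a difference of 0.02 ± 0.20 (SE). Kcnn1, a small-conductance channel gene, had 0.09 ± 0.15 (SE). Kcnn4, the intermediate-conductance channel known from blood cells and microglia, had signals of 212, 208, 219.7 and 214 in non-deprived arrays and 187, 267, 333 and 272 in deprived ones. Its 4 non-deprived values were close together, and 3 deprived values lay above them and 1 below. The difference was 0.26 ± 0.19 (SE) with a limma unadjusted p of 0.199. With either the actin or Gapdh ratio added to the fit, 1 of these 3 genes stayed above 0.

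**Figure D3:**
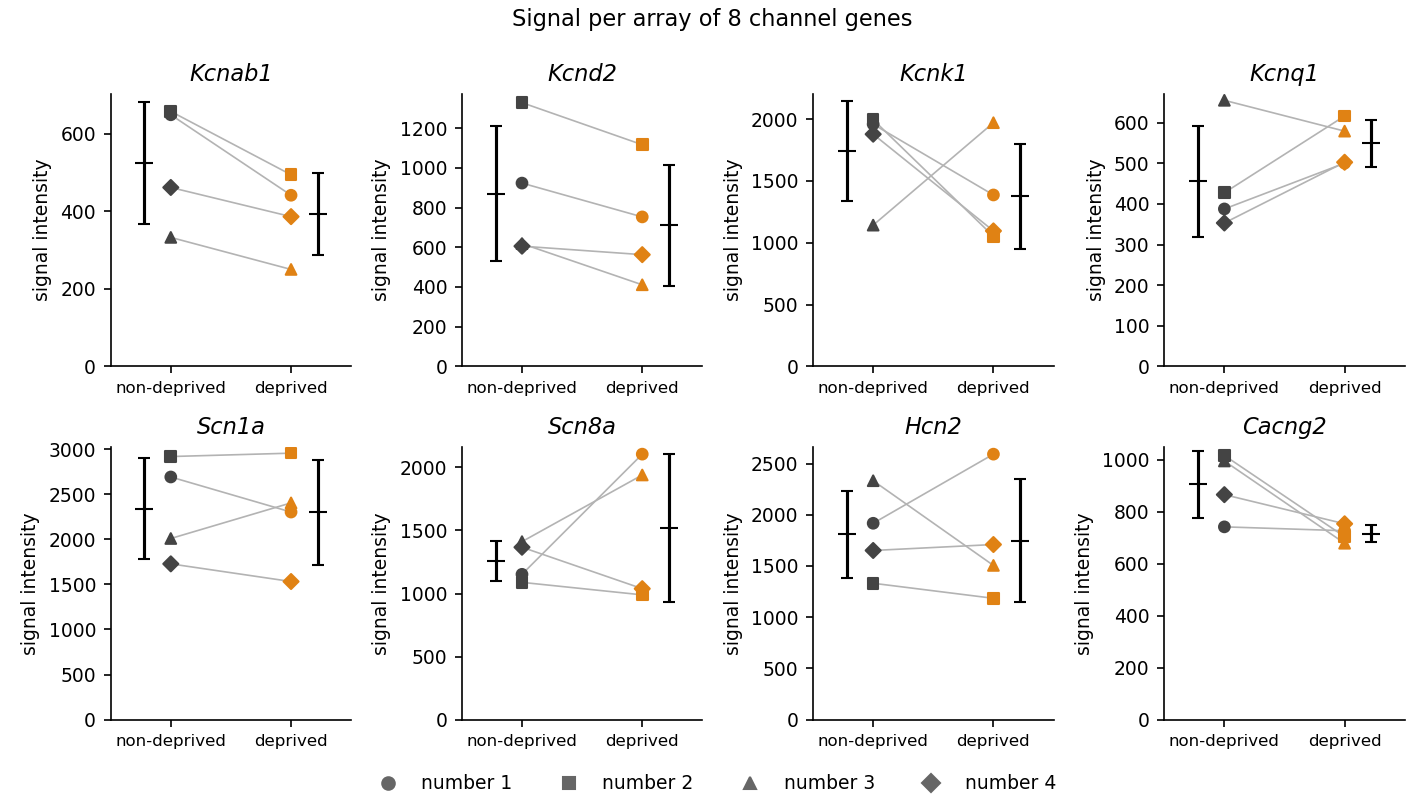
Signal intensity (linear) of 8 channel genes in the 4 non-deprived (grey) and 4 deprived (orange) arrays, with grey lines joining arrays of the same number, marker shapes for numbers 1 to 4, and black bars for the mean ± SD. Kcnab1, Kcnd2 and Cacng2 are lower in the deprived array of each pair, while the pairs of Kcnk1, Scn8a and Hcn2 go both ways.

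Sodium channel genes were represented by pore subunits only, and 2 of 6 were bright enough to test. Scn1a, which is prominent in parvalbumin interneurons, had signals of 2691, 2918, 2009 and 1728 in non-deprived and 2302, 2955, 2404 and 1532 in deprived arrays. The arrays numbered 2 were highest and those numbered 4 lowest in both groups, a range that far exceeded the group difference of -0.03 ± 0.22 (SE). A second Scn1a probe set repeated the low values of number 4, with 613 and 607, and had a difference of 0.02 ± 0.19 (SE). Scn8a, the main sodium channel of the axon initial segment in mature neurons, had 1152, 1088, 1411 and 1367 in non-deprived and 2105, 989, 1939.5 and 1038 in deprived arrays. Deprived arrays 1 and 3 lay above all non-deprived ones, and deprived arrays 2 and 4 lay below all of them. The difference was 0.20 ± 0.24 (SE), with a limma unadjusted p of 0.431 and a 95% interval of -0.33 to 0.72. Without deprived replicate 1 it was 0.01, and without deprived replicate 2 it was 0.37.

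The HCN genes on the array did not separate the hemispheres either. Hcn2 had 1808 ± 424 (non-deprived) against 1748 ± 603 (deprived; SD, n = 4), a difference of -0.08 with an interval of -0.59 to 0.43. Its second probe set had -0.28 ± 0.30 (SE), and in both the arrays numbered 3 gave the lowest pair difference, -0.63 and -0.85. Hcn3 had 746 ± 123 and 784 ± 236, a difference of 0.04 with an interval of -0.41 to 0.49.

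Among the calcium channel genes tested, alpha1 and auxiliary genes lay on opposite sides of 0, although none was called. The alpha1 subunit forms the pore, and alpha2delta, beta and gamma subunits associate with it. The 4 alpha1 genes tested, Cacna1a, Cacna1b, Cacna1c and Cacna1g, all lay above 0 with a median of 0.22, and the 4 tested auxiliary genes, Cacna2d1, Cacna2d3, Cacnb2 and Cacng2, all lay below 0. Over all probe sets tested 54.9% lay above 0. This split of the calcium channel genes was noticed after the values were seen and was not tested. It was the same after quantile and cyclic loess scaling. The replicate block could not alter it, because with every number present in both groups the block leaves each difference unchanged. With array weights, and with either the actin or Gapdh ratio added to the fit, 3 of 4 alpha1 genes were above 0. The same number was above 0 without non-deprived replicate 2 or 3 or without deprived replicate 1. The auxiliary genes below 0 were 3 of 4 with either ratio, and when non-deprived replicate 3 or deprived replicate 1 was left out.

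Cacng2, or stargazin, was the 1 gene of the 36 tested with an unadjusted p under 0.05 in the fit without the replicate block. Despite its place in the calcium channel gamma family it is best known as an auxiliary subunit that brings AMPA-type glutamate receptors to synapses. Its signals were 742, 1016.5, 995 and 866 in non-deprived arrays 1 to 4 and 727, 704, 679 and 754 in deprived ones. The deprived values were tightly grouped, and 3 of the 4 non-deprived arrays lay above all of them. The log2 difference was -0.32 ± 0.14 (SE), an interval of -0.63 to -0.01, with a limma unadjusted p of 0.0432 and an adjusted p of 0.995. With the block these were 0.0311 and 0.703. Leaving out 1 array at a time gave -0.41 to -0.26. No tested channel gene, Cacng2 included, had an unadjusted p under 0.05 without non-deprived replicate 2 or 4, without deprived replicate 2, with the Gapdh ratio added to the fit or without the intensity trend.

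The alpha1 genes differed in how evenly the pairs moved. Cacna1c, an L-type pore whose channels couple depolarization to gene expression, had 483, 627.5, 606 and 446 in non-deprived and 582, 541, 636 and 806.5 in deprived arrays. Its difference of 0.24 ± 0.17 (SE, limma unadjusted p of 0.194) came largely from the arrays numbered 4, whose pair difference was 0.83. Cacna1b, the N-type channel of presynaptic terminals, had 0.20 ± 0.21 (SE), and Cacna1a, its P/Q-type counterpart, 0.03 ± 0.22 (SE).

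Cacna1g encodes a T-type channel and is abundant in thalamus. It had 351, 366, 228 and 143 in non-deprived and 348, 361, 383 and 195 in deprived arrays. The pairs numbered 1 and 2 were equal to within 0.02, and those numbered 3 and 4 had 0.71 and 0.41, for a difference of 0.27 ± 0.30 (SE). With the actin ratio as a covariate it was -0.20. The mean of the thalamic markers was higher on the deprived side in 4 of 4 pairs. Of 6 tested, 5 were above 0, and their mean log2 level was 8.71 to 8.87 in non-deprived and 8.75 to 9.12 in deprived arrays. Calb2, 1 of these 6, is also counted above among the interneuron markers. The 7 thalamic markers on the array summed to a signal of 2521 to 2901 in non-deprived and 2672 to 3436 in deprived arrays, and Gbx2, a defining marker, was near the floor at a mean of 15.9. The part of the thalamic markers in the Cacna1g value was not tested.

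The alpha2delta and beta genes, whose products raise the number of channels at the membrane, stayed close to 0. Cacna2d3 had 1403 ± 248 (non-deprived) against 1258 ± 155 (deprived; SD, n = 4), a difference of -0.15 with an interval of -0.50 to 0.21. Cacna2d1, the gabapentin-binding subunit, had -0.08 ± 0.17 and Cacnb2 -0.06 ± 0.16 (SE).

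**Figure D4:**
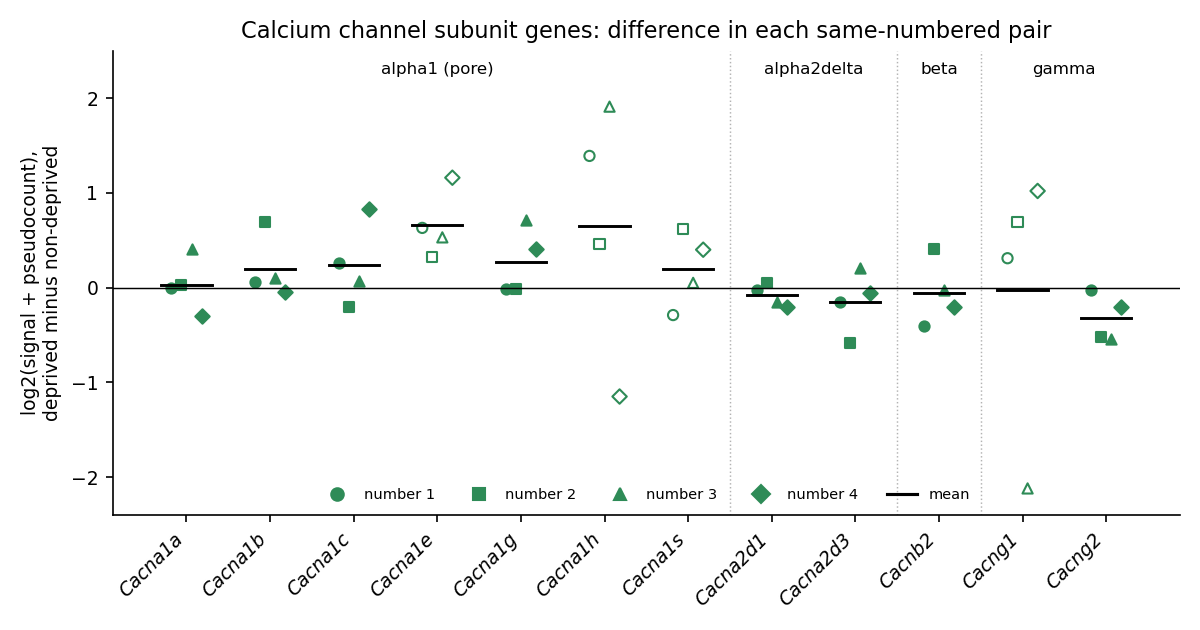
Difference in log2(signal + pseudocount) between the deprived and the non-deprived array of each number (markers by number) for the 12 calcium channel genes, grouped by subunit type; black bars are the mean, and open markers are genes too dim for the test. The 4 filled alpha1 genes have means of 0.03 to 0.27, the filled auxiliary genes means of -0.32 to -0.06, and the pairs of most genes fall on both sides of 0.

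The 26 genes below the filter had mean signals of 9.54 to 106.5, and 4 of them lay below the pseudocount. In a fit without the filter, 15 of these 26 had differences above 0, where 69.8% of all dim probe sets did, with a median of 0.17 over dim probe sets. None of the 26 had groups without overlap, against 4.31% of dim probe sets. Cacna1e, the R-type calcium channel pore, had 54.8, 76.1, 95.8 and 42.1 in non-deprived and 93, 98.7, 144.6 and 113 in deprived arrays. It was higher in 4 of 4 pairs, as were 15.1% of dim probe sets, with overlapping groups, at 0.66 ± 0.29 (SE). The limma unadjusted p was 0.0429, a level reached by 3.95% of all probe sets in that fit and 6.3% of dim ones, and the adjusted p 0.974. After quantile scaling, where the median of dim probe sets was 0.02, Cacna1e had 0.55 ± 0.28 (SE) and a limma unadjusted p of 0.0743. The limma unadjusted p was 0.0784 after cyclic loess scaling, and 0.0742 and 0.0972 with the actin and Gapdh ratio added. It was 0.0389 with the replicate block, and leaving out 1 array gave 0.0207 to 0.135. The dimmer second probe set of Cacna1e had 0.10 ± 0.37 (SE). Cacna1h, a further T-type pore gene, had 49.8 ± 35.2 and 84.7 ± 47.1 (SD, n = 4), with pairs from -1.15 to 1.91. Kcna4, Kcnd3, Kcnj3, Kcnj6, Kcnj8, Kcnk3 and Scn3a were also too dim to test. Scn3a, a sodium channel gene of the embryonic brain, had 10.9 ± 6.12 and 8.2 ± 3.85, below the pseudocount in both groups.

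Samples of the same number tended to be high or low together. The same number was brightest in both groups for 17 of 36 genes (47.2%), against 43.2% of all probe sets, and dimmest in both for 12 (33.3%), against 40.3%. Scn1a, Kcnab1, Kcnk2, Kcna1, Kcnab3, Cacna2d1 and Hcn3 shared both ends. With the number as a block the standard error was smaller for 34 of the 36 genes, and its median fell from 0.21 to 0.15, without any adjusted p passing. The count of smaller standard errors was made for the channel genes only, not over all probe sets.

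No gene was called among those that anchor or modulate channels, other channels and ion pumps. Of 14 tested channel partners, 7 lay below 0 and 7 above, with a median of 0.01 and 0 called. Ank3, the ankyrin that clusters sodium channels at the axon initial segment, had 1895 ± 597 (non-deprived) against 2045 ± 542 (deprived), and Dpp6, an auxiliary subunit of Kv4 channels, 1198 ± 136 and 1347 ± 307 (SD, n = 4). Of 10 tested chloride and other cation channels, 3 lay below 0 and 7 above, with 0 called. In limma 1 of the 10 had an unadjusted p under 0.05, where 2.67% of all probe sets did. With the replicate block 4 did, where 7.03% of all probe sets did: Trpv2, Clcn1, Clcn4 and Clcn7, each with an adjusted p of 0.703. The one without the block was Trpv2, a cation channel gene, with 355, 378, 327 and 336 in non-deprived and 422, 445, 456 and 501.5 in deprived arrays, so that its groups did not overlap. Its difference was 0.37 ± 0.14 (SE), with a limma unadjusted p of 0.0225 and an adjusted p of 0.995. Clcn4, a chloride-proton exchanger of endosomes, had 1640 ± 73.7 and 1352 ± 181 (SD, n = 4) with no overlap, and an unadjusted p of 0.0558 in limma. Groups without overlap were seen for 2.04% of all probe sets. Clcn1, a chloride channel best known from muscle, had the lowest difference of the list, -0.77 ± 0.44 (SE), from 221 ± 66.4 (non-deprived) to 146 ± 117 (deprived; SD, n = 4), lower in 3 of 4 pairs. Clcn7, a lysosomal chloride-proton exchanger, had 0.32 ± 0.16 (SE), higher in 3 of 4. Of 11 ion pump and exchanger genes, 9 lay below 0 and 2 above, with a median of -0.09 and 0 called. Over all probe sets tested 54.9% lay above 0. Fxyd7, a regulator of the sodium pump, was lower in 4 of 4 pairs at -0.40 ± 0.32 (SE). Its limma unadjusted p was 0.232, and 0.0244 with the block, where the adjusted p was 0.703. Atp1b1, a beta subunit of the sodium pump, was also lower in 4 of 4 pairs, at -0.16 ± 0.14 (SE). Of all probe sets, 6.92% were lower in 4 of 4 pairs. Slc12a5, the neuronal chloride extruder, had 0.21 ± 0.24 (SE).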

How the data were processed

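The authors deposited 1 linear signal intensity for each probe set of 1-colour short-oligonucleotide arrays, for which the submitters' processing notes name MAS5. Its version is not given in the sources here. The labels' protocols state about 10 µg of total RNA. Of 12488 probe sets, 66 controls were removed, arrays were rescaled to a common 2% trimmed mean (500.3), and log2(signal + 15.3) was taken, 15.3 being the 10th percentile of signal. Probe sets above the 40th percentile of mean log2 value were tested (7453 of 12422). The number of arrays limits the precision. Symbols came from the platform annotation, where 10833 probe sets had 1 symbol, 396 several and 1193 none; 10817 were updated through Entrez identifiers to the GRCm38.p6 gene table. No column of sample values was left unused (0).

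The groups were tested against each other in R 4.3.3 using limma 3.58.1 (lmFit, eBayes with an intensity trend; two-sided; Benjamini-Hochberg over all probe sets tested; threshold 0.05), and the analysis was tested on simulated data. Intervals are 95% moderated intervals. The fit without a replicate block was the main one, and the standard errors of differences and the intervals given come from fits without it. Deviations from group means correlated at 0.16 to 0.42 between same-numbered samples, against -0.27 to 0.12 for other pairs. All 4 pairs exceeded 0.1, so the numbers were taken to pair the samples on the evidence of these data, not of the labels. Figures used matplotlib 3.10.9 in Python 3.11.15.

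The members and lists were chosen with earlier results of these data known. The text names the members with the smallest p (10 potassium, 4 sodium where tested, 6 calcium, all HCN), and 31 genes on the array from a set list of 52, of which 23 passed the filter. Kcnab3, Cacna1h and the genes of other lists were named after their values were seen. The chosen probe set ended in _r_at for 3 of the 36 tested genes (Kcnd2, Kcnq1, Hcn2) and in _s_at for 2 (Scn1a, Cacna1c), suffixes that mark relaxed or shared probe design, so related transcripts may add to these signals. Of 5 genes with 2 probe sets past the filter, 1 (Scn1a) had opposite signs, and none differed by over 0.5 with opposite signs.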

Additional observations from a re-analysis of the deposited data

Results flagged for a closer look

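In 5 of the 90 groups of 4 arrays examined, 1 array stood far from the other 3; chance flags about 1 in 20 such groups (4.5 here). Given as the gap over the group's range on the log2 scale, Kcnh2 had 0.83 with deprived replicate 3 low, and Kcnk1 had 0.891 with non-deprived replicate 3 low. Cacna1g had 0.855 with deprived replicate 4 low. The median log2 value of the 8 calcium channel genes had 0.833 with non-deprived replicate 2 low (8.86, the others 9.15 to 9.21), and 0.927 with deprived replicate 1 high (9.24, the others 9.16 to 9.17).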

How the results depend on the processing

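No probe set was called under any alternative run: 2 other scalings, 2 pseudocounts, 2 filters, the replicate number as a fixed or random block, array weights, the actin or Gapdh ratio as a covariate, no intensity trend, the mean of a gene's probe sets, and leaving out each array. The smallest adjusted p of a named channel gene was 0.667, with the random block. The replicate block changed no call and raised the channel genes at an unadjusted p under 0.05 from 1 to 3, and all such probe sets from 199 to 524 (535 with a random block, 368 with array weights, 491 without the filter, 97 with the filter at the 60th percentile, 133 to 429 without 1 array). Leaving out an array moved that count by over 1.5 times for deprived replicate 1 (311), deprived replicate 4 (429), and without non-deprived replicate 3 there were 3 such channel genes; there were 0 without non-deprived replicate 2 or 4 or deprived replicate 2, with the Gapdh ratio, and without the intensity trend. Of 30 named genes, 9 kept their sign in every alternative run, among them Kcnab1, Kcnd2, Kcnk1, Kcnq1 and Cacng2, though not their size: leaving out 1 array gave -0.55 to -0.08 for Kcnd2, -0.59 to -0.20 for Kcnab1 and 0.01 to 0.37 for Scn8a. The other 21 changed sign in 1 or more, 52 of 623 values, and the cause was not tested. The 623 values include the runs with a block, with another filter and without the intensity trend. These runs leave a gene's difference unchanged, so no sign could change in them. The calcium median was 0.12 without the filter, against -0.01. With array weights Scn1a had 0.11 and Cacna1a -0.04. With the actin ratio the values were Kcnab2 -0.09, Kcnc1 0.02, Kcnh1 0.21, Kcnj4 0.25, Kcnk2 -0.11, Kcnma1 -0.09, Kcnn1 -0.01, Cacna1g -0.20, Cacna2d1 0.00 and Hcn2 0.10. With the Gapdh ratio they were Kcnma1 -0.18, Kcnn1 0.00, Cacna1b -0.10, Cacna2d3 0.05 and Hcn3 -0.07. Leaving out 1 array moved these genes across 0: Kcna1 (-0.05 to 0.18), Kcna2 (-0.31 to 0.13), Kcna3 (0.00 to 0.27), Kcnab2 (-0.03 to 0.15), Kcnc1 (-0.36 to 0.15), Kcnh1 (-0.27 to 0.08), Kcnh2 (-0.14 to 0.03), Kcnj4 (-0.19 to 0.08), Kcnk2 (-0.04 to 0.16), Kcnma1 (-0.12 to 0.16), Kcns1 (-0.20 to 0.02), Scn1a (-0.16 to 0.15), Cacna1a (-0.10 to 0.15), Cacna2d1 (-0.19 to 0.01), Cacnb2 (-0.15 to 0.03), Hcn2 (-0.29 to 0.09) and Hcn3 (-0.14 to 0.16). The settings for Cacna1e were chosen after seeing the data. Signal near background limits the 26 dim genes, and 4 arrays a group limit the rest.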
